A study of Sus scrofa with 16 samples.

Results

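The genes described here were the glucocorticoid and mineralocorticoid receptors, NR3C1 and NR3C2, and 8 of the best known genes that glucocorticoids switch on, in the hippocampus of preterm pigs with and without necrotizing enterocolitis (NEC), an inflammatory necrosis of the newborn gut. Of the 10 genes listed, 5 were found by pig Ensembl gene ID in the deposited expression table: FKBP5 (ENSSSCG00000001549), SGK1 (ENSSSCG00000021443), KLF9 (ENSSSCG00000021646), PER1 (ENSSSCG00000017983) and DUSP1 (ENSSSCG00000016991). Each had 1 entry among 22815 distinct entries, and each was among the 13590 entries tested. NR3C1, NR3C2, TSC22D3, ZBTB16 and ERRFI1 were not found by the gene IDs used and were not analysed here, which says nothing about their expression. No receptor level and no ratio between the receptors is therefore given.

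Glucocorticoids such as cortisol enter the cell and bind NR3C1, which is held ready by the HSP90 chaperone and its partners, moves to the nucleus and activates target genes. NR3C2 binds the same hormones with higher affinity and is abundant in the hippocampus, a brain region known for its dense supply of both receptors and for its part in feedback on the stress hormone axis. FKBP5 is a cochaperone of HSP90 that lowers the receptor's hormone binding and is itself a target, and SGK1 (a kinase), KLF9 and PER1 (a transcription factor and a clock protein) and DUSP1 (a phosphatase of MAP kinases) are further targets.

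RNA-seq of the left hippocampus was available for 16 preterm pigs of a mixed farm cross, delivered by cesarean section and fed human donor milk with parenteral nutrition for about their first week, so that NEC arose spontaneously in some. The 6 Si-NEC pigs (labelled siNEC, 3 female and 3 male) had severe lesions of the small intestine, with or without lesions of the colon. The 5 Co-NEC pigs (coNEC, 2 female and 3 male) had severe lesions of the colon alone, and the 5 No NEC pigs (noNEC, 2 female and 3 male) had none. Which Si-NEC pigs also had colon lesions is not in the labels. Groups were set by lesions found at death, not by treatment, and diet and litter are not in the labels. Pig numbers end in 14 in 6 pigs, which were all male, and in 15 in 10 pigs, and each group held 2 pigs of the former kind.

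Expression was given as FPKM, fragments scaled by transcript length and library size, which allows levels of different genes to be compared. Without read counts, the depth of these values is unknown. The values summed to 544629 to 645197 FPKM in 14 pigs, but to 823320 in Si-NEC pig 223-15 and 864931 in No NEC pig 230-15, which are circled in the plot of the levels. Defining markers of the tissue were present, with the excitatory neuron gene SLC17A7 at a mean of 582.2 FPKM and the astrocyte gene GFAP at 603.0 FPKM over the 16 pigs. Of 7 choroid plexus markers listed, 3 had a single entry, with OTX2 at 0.176, CLIC6 at 0.124 and TTR at 11.2 FPKM, and their sum reached 23.7 FPKM in No NEC pig 230-15 and 25.7 in Si-NEC pig 246-15. In whole tissue, fewer cells of a type and less RNA per cell cannot be told apart.

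The 5 genes were expressed in every pig. KLF9 had the highest mean over the 16 pigs, 29.0 ± 4.602 FPKM (SD, n = 16), followed by PER1 at 28.1 ± 5.43, SGK1 at 20.9 ± 2.94, FKBP5 at 17.6 ± 7.47 and DUSP1 at 17.1 ± 6.59. KLF9 and PER1 did not keep a fixed order, since KLF9 was the higher in 3 of 5 pigs without NEC and 4 of 5 with Co-NEC, whereas PER1 was the higher in 4 of 6 with Si-NEC. PER1 exceeded SGK1 in 5 of 5 No NEC and 4 of 5 Co-NEC pigs. FKBP5 and DUSP1 also changed places, with FKBP5 the higher in 3 of 6 Si-NEC pigs.

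**Figure D1:**
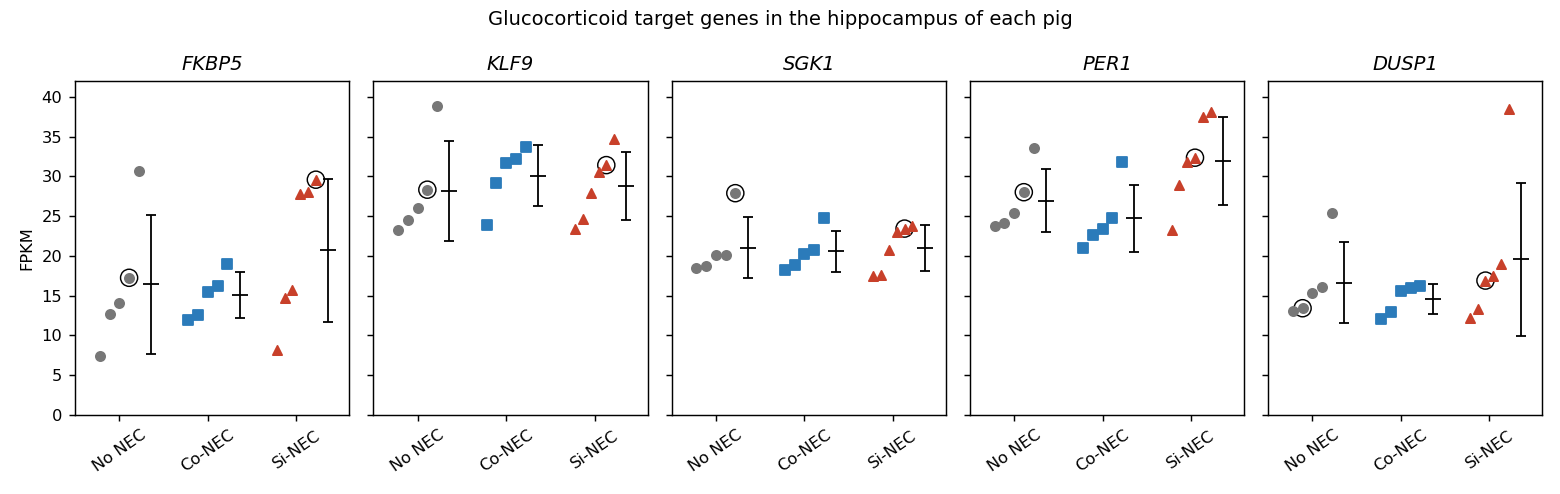
FPKM (linear axis from 0) of FKBP5, KLF9, SGK1, PER1 and DUSP1 in each pig, with No NEC pigs as grey circles, Co-NEC pigs as blue squares and Si-NEC pigs as red triangles, and the mean with its SD as a black bar beside each group (n = 5, 5 and 6). Pigs 223-15 and 230-15 carry a ring. The groups overlap for every gene, and FKBP5 runs from 7.39 to 30.7 FPKM.

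FKBP5, the cochaperone in the receptor's own feedback loop, was the most variable of the 5. In No NEC pigs it was at 30.7 FPKM in 540-14, 17.2 in 230-15, 14.1 in 228-15, 12.7 in 253-15 and 7.39 in 550-14, which are the highest and the lowest values of all 16 pigs. In Co-NEC pigs it was at 19.0 in 231-15, 16.2 in 225-15, 15.5 in 552-14, 12.5 in 255-15 and 11.9 FPKM in 545-14. In Si-NEC pigs it ran from 8.19 FPKM in 547-14 to 29.6 in 223-15, with a median of 21.8. No Si-NEC pig lay outside the range of the No NEC pigs. Against the Co-NEC range, 3 of the 6 Si-NEC pigs were higher and 1 was lower.

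Mean FKBP5 was 16.4 ± 8.74 FPKM without NEC (SD, n = 5), 15.0 ± 2.89 with Co-NEC (n = 5) and 20.7 ± 8.96 with Si-NEC (n = 6). On the log2(FPKM + 0.5) scale, which all fold changes below use, Si-NEC exceeded No NEC pigs by 0.34 with a standard error of 0.39 (95% interval −0.50 to 1.18), which was not significant in a two-sided exact permutation test (p = 0.459). A fold between 0.705 and 2.26 lies within that interval. Single pigs of both groups moved this value, to 0.10 without 550-14 and 0.59 without 540-14, and to 0.57 without 547-14, 0.21 without 223-15, 0.22 without 246-15 and 0.23 without 224-15. It was 0.74 among pigs numbered 15 (4 against 3) and −0.45 among those numbered 14 (2 against 2), so the direction did not hold across number suffixes. Si-NEC against Co-NEC gave 0.34 as well (standard error 0.30, exact permutation p = 0.361), with 0.63 and −0.30 within the same suffixes and 0.14 when limma's array weights were used. It was 0.57 without 547-14, 0.21 without 223-15, and 0.22 without 246-15 or without 224-15. Co-NEC against No NEC gave 0.0015 (standard error 0.30, exact permutation p = 1).

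The spread of FKBP5 within groups was large for its level. Its SD of 0.61 on the log2 scale, taken around the group means, exceeded that of 91.5% of the 13590 entries tested and that of 94.3% of the 4678 entries within 2-fold of its mean level. DUSP1 followed with 0.43 (79.3% of entries were less variable), while KLF9, PER1 and SGK1, at 0.23, 0.23 and 0.20, lay under the median entry at 0.29. The highest FKBP5 value was 4.15 times the lowest, against 1.60 times for SGK1.

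SGK1, a kinase that acts on ion transport and cell survival, was the steadiest of the 5. No NEC pig 230-15 had 27.9 FPKM, and the other 4 of its group had 18.5 to 20.1. Co-NEC pigs had 18.2 to 24.8 FPKM and Si-NEC pigs 17.5 to 23.8 (median 21.9). Pig 230-15 thus stood above all others for SGK1, and it also had the highest summed FPKM. Among the 16 pigs it ranked 6 for FKBP5, 8 for PER1, 9 for KLF9 and 11 for DUSP1. A link between its summed FPKM and its SGK1 level was not tested. The means of 21.1 ± 3.89, 20.6 ± 2.57 and 21.0 ± 2.92 FPKM differed by less than the spread between pigs in every comparison. The log2 difference from No NEC was 0.0010 in Si-NEC (95% interval −0.30 to 0.30) and −0.02 in Co-NEC (−0.32 to 0.27), and that of Si-NEC from Co-NEC was 0.02 (−0.23 to 0.27), with exact permutation p of 0.996, 0.865 and 0.827. Within pigs numbered 14 and 15, the last was −0.37 and 0.24.

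KLF9, a transcription factor that restrains neuronal growth and proliferation, was at 38.8 FPKM in No NEC pig 540-14, which also had the highest FKBP5, and at 28.3, 26.1, 24.5 and 23.2 FPKM in 230-15, 228-15, 253-15 and 550-14. Co-NEC pigs were at 33.7 FPKM in 231-15, 32.2 in 552-14, 31.7 in 225-15, 29.1 in 545-14 and 23.9 in 255-15. Si-NEC pigs ran from 23.3 FPKM in 539-14 to 34.7 in 246-15, with a median of 29.3. The means were 28.2 ± 6.26 FPKM in No NEC, 30.1 ± 3.85 in Co-NEC and 28.8 ± 4.29 in Si-NEC pigs, so Co-NEC had the highest mean and the groups overlapped throughout. Log2 differences of 0.04 (Si-NEC) and 0.11 (Co-NEC) from No NEC, and of −0.07 between both NEC groups, had standard errors of 0.15, 0.15 and 0.12 and exact permutation p of 0.794, 0.492 and 0.600. Within pigs numbered 14 and 15, the first of these was −0.32 and 0.24. Leaving out each pig in turn gave 0.05 (without 550-14) to 0.23 (without 540-14) for Co-NEC against No NEC, and −0.15 (without 255-15) to −0.01 (without 539-14) between both NEC groups.

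PER1, a clock protein whose gene glucocorticoids induce within hours, had the lowest p of the 15 tests on the 5 genes, in the comparison of both NEC groups. Co-NEC pigs were at 31.9 FPKM in 231-15, 24.8 in 255-15, 23.3 in 545-14, 22.6 in 552-14 and 20.99 in 225-15. Si-NEC pigs ran from 23.3 FPKM in 547-14 to 38.1 in 224-15 with a median of 32.1. Thus 3 of the 6 exceeded the whole Co-NEC range, and 5 of the 6 its median. No NEC pigs overlapped both, at 33.5 FPKM in 253-15, 28.0 in 230-15, 25.4 in 228-15, 24.2 in 550-14 and 23.7 in 540-14.

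Mean PER1 was 31.97 ± 5.53 FPKM in Si-NEC (n = 6), 24.7 ± 4.22 in Co-NEC (n = 5) and 27.0 ± 4.03 in No NEC pigs (n = 5). Si-NEC exceeded Co-NEC by 0.36 on the log2 scale (standard error 0.14, 95% interval 0.05 to 0.67), a fold between 1.04 and 1.59. A two-sided exact permutation test of this gene alone gave p = 0.0455, whereas the limma p of 0.0247 became 0.864 after Benjamini-Hochberg adjustment over all entries tested, so the difference did not pass the threshold of 0.2. It was 0.36 among pigs numbered 14 and 0.35 among those numbered 15, and 0.31 to 0.45 when each pig was left out in turn. Against No NEC pigs, the log2 difference was 0.23 in Si-NEC (standard error 0.14, exact permutation p = 0.134) and −0.13 in Co-NEC pigs (standard error 0.14, exact permutation p = 0.357). The latter ran from −0.22 without 231-15 to −0.05 without 253-15.

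DUSP1, which switches off MAP kinases and also responds to neuronal activity, had 2 pigs far above the rest. Si-NEC pig 246-15 had 38.5 FPKM and the other 5 of its group 12.2 to 19.0 (median of all 6, 17.2), while No NEC pig 253-15 had 25.4 FPKM and the other 4 of its group 13.05 to 16.02. Co-NEC pigs were at 16.2 FPKM in 255-15, 15.96 in 552-14, 15.6 in 231-15, 12.9 in 225-15 and 12.1 in 545-14. The Co-NEC range was exceeded by 4 of the 6 Si-NEC pigs. Mean DUSP1 was 16.6 ± 5.07 FPKM without NEC, 14.5 ± 1.91 with Co-NEC and 19.6 ± 9.63 with Si-NEC. Si-NEC exceeded Co-NEC by 0.32 on the log2 scale (standard error 0.24, exact permutation p = 0.290). From No NEC pigs, the log2 difference was 0.16 in Si-NEC (standard error 0.27, exact permutation p = 0.619) and −0.16 in Co-NEC (standard error 0.18, exact permutation p = 0.492). Without pig 246-15 the first became 0.11 and the next −0.05, and without 253-15 the last was 0.0047. Within pigs numbered 14 and 15, the difference between both NEC groups was −0.12 and 0.53.

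**Figure D2:**
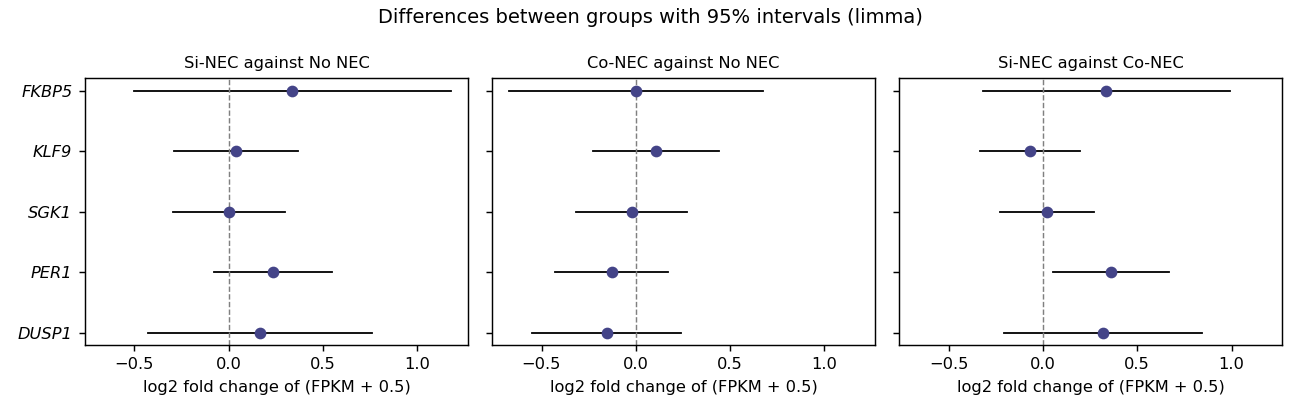
Log2 fold change of (FPKM + 0.5) between groups for the 5 genes, with dots for limma estimates and lines for their 95% intervals. All intervals include 0 except that of PER1 in Si-NEC against Co-NEC, 0.05 to 0.67, and FKBP5 has the widest, from −0.50 to 1.18 in Si-NEC against No NEC.

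Over the whole table, limma called 0 of the 5 at an adjusted p under 0.2 in each comparison, and 0 of 5 had groups without overlap, which held for 0.155% of all entries in Si-NEC against No NEC, 0.464% when Co-NEC replaced Si-NEC and 0.545% between both NEC groups. For Si-NEC against No NEC, 0 of 5 passed where 0.00736% of all entries did, and 0 of 5 had an unadjusted p under 0.05, against 2.61% of all entries. For Co-NEC against No NEC the counts were again 0 of 5 at the adjusted threshold, beside 0.00736% of all entries, and 0 of 5 at an unadjusted p under 0.05, beside 3.44%. Between both NEC groups, 0 of 5 passed beside 0.0147%, and 1 of 5, PER1, had an unadjusted p under 0.05 beside 5.64%. The log2 fold change was above 0 for 5 of 5 genes in Si-NEC against No NEC (53.7% of all entries), 2 of 5 in Co-NEC (52.1%) when set against the same controls, and 4 of 5 when Si-NEC was set against Co-NEC (50.0%). After rescaling each pig by its median ratio to the geometric mean, SGK1 in the first comparison and FKBP5 in the next fell just under 0, giving 4 and 1 of 5. The median over the 5 genes was 0.16, −0.02 and 0.32 in these comparisons, and 0.02, 0.01 and 4.8e-05 over all entries. In both comparisons of Si-NEC pigs, PER1 was above 0 among pigs numbered 14 and among those numbered 15, while FKBP5, SGK1, KLF9 and DUSP1 were below 0 in the former (2 against 2) and above 0 in the latter. These comparisons share their groups of pigs and the same few pigs set several genes, so they are not independent.

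In Si-NEC pigs the higher values of 3 genes belonged to the same animals. Pigs 223-15, 224-15 and 246-15, the 3 females of the group, were at 29.6, 27.8 and 28.1 FPKM for FKBP5, and the males 547-14, 539-14 and 226-15 at 8.19, 14.7 and 15.7. For SGK1 the females were at 23.1 to 23.8 FPKM and the males at 17.5 to 20.7, and for KLF9 at 30.6 to 34.7 and 23.3 to 27.9. Every female was thus above every male for 3 of the 5 genes, which held for 10.8% of all entries. The log2 difference between the sexes was 1.17 for FKBP5, 0.33 for SGK1 and 0.34 for KLF9, each with p = 0.1 (exact permutation test, two-sided), the smallest that 3 pigs against 3 allow. For PER1 and DUSP1 the sexes overlapped. This split was looked at after the values were seen.

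FKBP5, SGK1 and KLF9 did not separate by sex in this way in the other groups. Every female was above every male for 0 of 5 genes in No NEC (7.93% of all entries) and for 1 of 5, PER1, in Co-NEC (11.7%). SGK1 had the reverse order in No NEC pigs, where both females, at 18.5 and 18.8 FPKM, lay below every male. Its log2 difference between the sexes there was −0.26 (exact permutation p = 0.3). In No NEC pigs, FKBP5 was at 12.7 and 14.1 FPKM in the females and 7.39 to 30.7 in the males, a log2 difference of −0.24 (exact permutation p = 0.7). In Co-NEC pigs it was at 12.5 and 19.0 FPKM in the females and 11.9 to 16.2 in the males, a log2 difference of 0.09 (exact permutation p = 0.8). Whether the difference between sexes varied between groups was not tested. Within Si-NEC, 2 of the 3 males were numbered 14 and all the females 15, so sex and number suffix cannot be told apart beyond male 226-15.

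Among pigs, FKBP5 and KLF9 varied together. Over the 16 pigs their log2 values had a Pearson r of 0.791 (permutation p = 0.00023, 0.0023 after Benjamini-Hochberg adjustment over the 10 pairs of the 5 genes) and a Spearman rho of 0.788 (permutation p = 0.0004, adjusted 0.004). Without 540-14 and 550-14, the pigs farthest from the FKBP5 median, r was 0.692. It was 0.851 after group means were removed, 0.840 among the 6 pigs numbered 14 and 0.786 among the 10 numbered 15. FKBP5 values left a gap between 19.0 and 27.8 FPKM, with pigs 224-15, 246-15, 223-15 and 540-14 above it. Among the 12 pigs below the gap, r was 0.667 and rho 0.671, so the relation did not rest on the 4 high pigs alone. Leaving out any 1 pig gave 0.744 to 0.823.

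Over the 16 pigs, the other pairs were looser. FKBP5 with SGK1 had r = 0.489 and SGK1 with KLF9 had r = 0.488, each with an adjusted permutation p of 0.188, and rho was 0.515 and 0.556 (adjusted permutation p = 0.144 and 0.140). Leaving out any 1 pig gave r of 0.406 to 0.577 for FKBP5 with SGK1 and 0.422 to 0.619 for SGK1 with KLF9. Both were highest without 230-15, and the adjusted permutation p was 0.0771 or more throughout. Without 230-15 and 552-14, the pigs farthest from the SGK1 median, r was 0.678 for FKBP5 with SGK1 and 0.612 for SGK1 with KLF9. Without 540-14 and 550-14, r was 0.616 and 0.635 in the same order. No p was computed for these values. Within Si-NEC, the pigs fell into the 3 females and 3 males described above for these genes, too few for a correlation in each. Pairs with DUSP1 or PER1 had r between −0.11 for PER1 with KLF9 and 0.379 for FKBP5 with PER1, and adjusted permutation p of 0.371 or more for r.

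**Figure D3:**
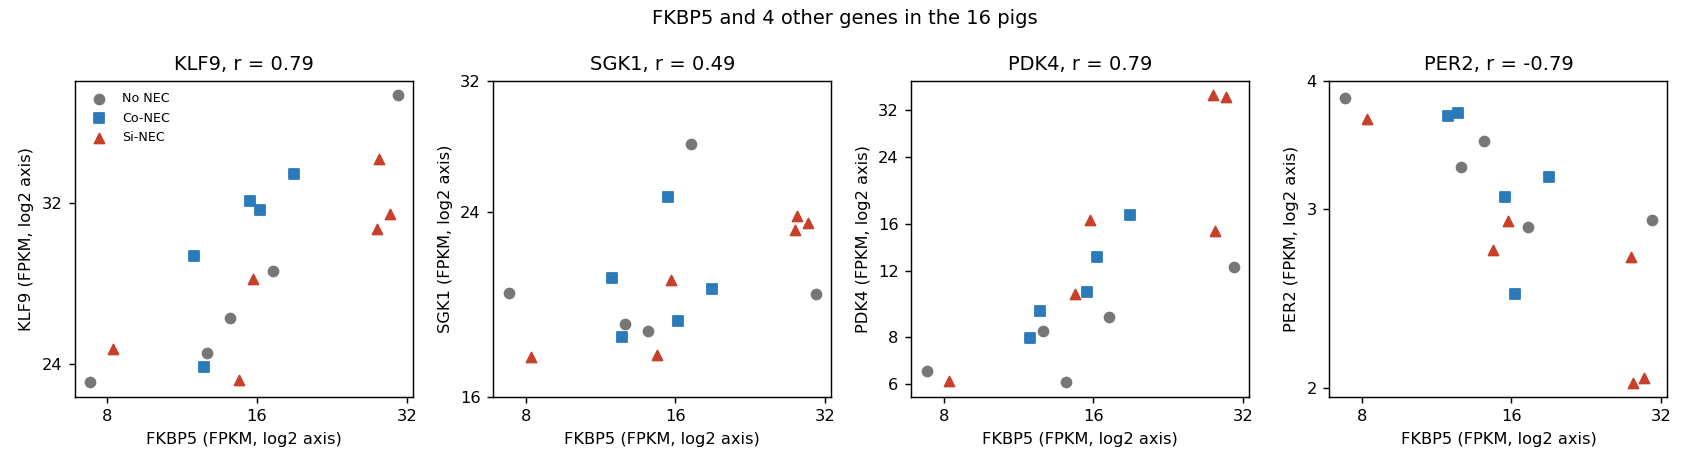
KLF9, SGK1, PDK4 and PER2 against FKBP5 in the 16 pigs, in FPKM on log2 axes, with No NEC pigs as grey circles, Co-NEC pigs as blue squares and Si-NEC pigs as red triangles. KLF9 and PDK4 climb with FKBP5 (r = 0.79 each) and PER2 declines (r = −0.79), while SGK1 follows loosely (r = 0.49).

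The genes most like FKBP5 across the pigs were TMEM100 (r = 0.885, rho = 0.90), HIF1A (r = 0.874, rho = 0.865) and IRAK2 (r = 0.867, rho = 0.885), taken as the 3 highest of 8453 named entries that averaged 1 FPKM or more and were never listed at 0. HIF1A encodes the oxygen-regulated subunit of a transcription factor and IRAK2 a kinase of Toll-like and interleukin-1 receptor signalling. TMEM100 was lowest in Si-NEC pig 547-14 at 25.3 FPKM and highest in Si-NEC pig 223-15 at 68.7. HIF1A ran from 16.1 FPKM in 550-14 to 30.6 in 246-15, and IRAK2 from 2.14 FPKM in 547-14 to 5.24 in 540-14. The lowest pig for FKBP5 itself was 550-14, next to 547-14. With group means removed, r was 0.891, 0.907 and 0.943 in the same order. These are descriptions chosen as the highest of many.

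Of the 15 further glucocorticoid targets tested, 12 had r above 0 with FKBP5 (median 0.369), where 8116 of all 13589 entries did (median 0.10). PDK4 was the highest of the 15 and PER2 the lowest. PDK4, which shuts glucose carbon out of the mitochondria in fasting, was singled out after its values were seen, with r = 0.793 and rho = 0.800 against FKBP5, rank 33 of 13589 entries and just above KLF9 at 34. Its level was 35.1 FPKM in 224-15 and 34.7 in 223-15, both Si-NEC females with high FKBP5, and 6.06 to 16.9 FPKM in the other 14 pigs. PER2, the partner of PER1 in the clock and also a known target, had the lowest r with FKBP5 of all 13589 entries, −0.793 (rho = −0.809), and was likewise singled out afterwards. It ran from 2.03 FPKM in 246-15 and 2.05 in 223-15 to 3.85 in 550-14, the pig with the least FKBP5. The r of PER2 stayed between −0.751 without pigs 223-15 and 230-15 and −0.835 without 540-14 and 550-14. PER1, in contrast, had r = 0.379 with FKBP5.

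**Figure D4:**
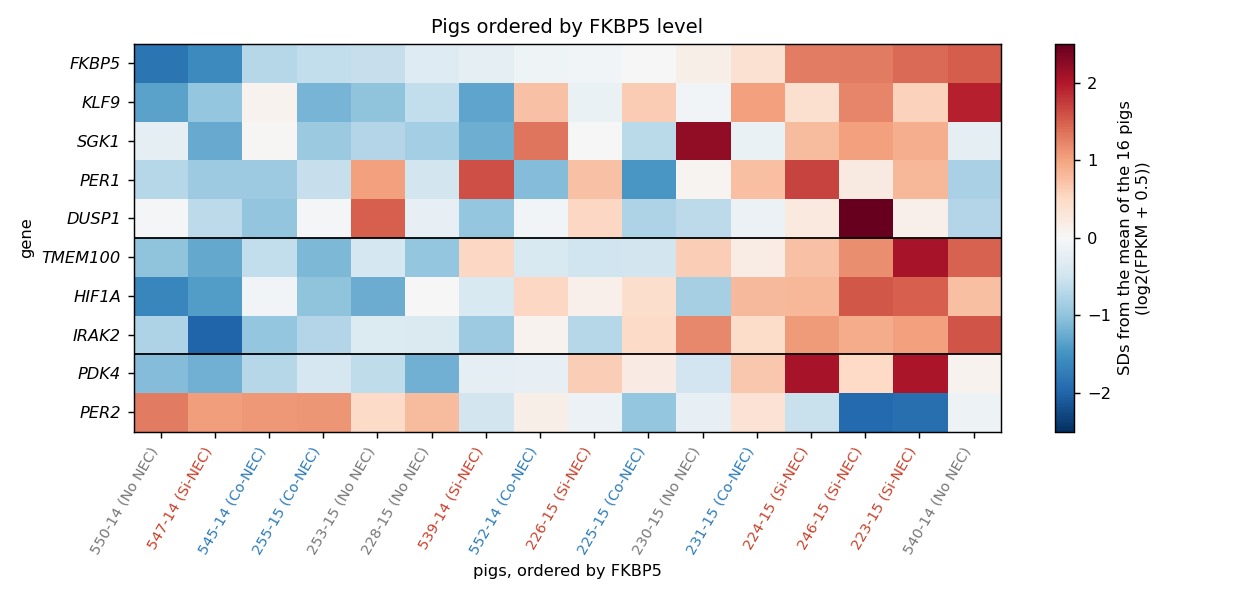
The 16 pigs ordered by FKBP5 from lowest (left) to highest (right), with the colour giving each gene's distance from its own mean in SDs of log2(FPKM + 0.5). KLF9, TMEM100, HIF1A, IRAK2 and PDK4 turn from blue to red with FKBP5 and PER2 from red to blue, and the right end holds the 3 Si-NEC females and No NEC pig 540-14.

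Marker genes of several cell types moved with FKBP5 as well. All 6 excitatory neuron markers tested had r below 0 with it, SLC17A7 lowest at −0.627, and 4 of 5 astrocyte markers above 0, GJA1 highest at 0.801. All 4 microglia markers were above 0 (C1QA highest at 0.588), as were 3 of 4 endothelial and 5 of 6 meningeal and mural markers, against 0 of 3 for oligodendrocytes and 0 of 3 for erythroid cells. Over all entries, 8116 of 13589 had r above 0, with a median of 0.10. Summed astrocyte markers were at 1003 to 1199 FPKM in No NEC, 1042 to 1153 in Co-NEC and 948 to 1584 in Si-NEC pigs. Their medians were 1034, 1142 and 1096 FPKM, and the Si-NEC maximum was that of pig 223-15, with its high summed FPKM. Summed neuron markers were at 849 to 965, 782 to 939 and 724 to 1027 FPKM in the same order. The neutrophil gene S100A8 had r = 0.566 with FKBP5 and 0.613 with PER1. Of the 7 neutrophil markers listed, 4 were found, summing to 0.800 to 3.18 FPKM in No NEC, 0.800 to 2.62 in Co-NEC and 2.29 to 25.9 in Si-NEC pigs, nearly all of it S100A8, with CSF3R listed at 0 in every pig. The part of these cell types in the levels of the glucocorticoid targets was not tested.

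The chaperones that hold the receptor were abundant, and differences from the other groups did not pass the test and rested in part on Si-NEC pig 223-15. Of 10 listed, 9 were tested, 0 passed an adjusted p under 0.2 in limma in any comparison, and 1, 1 and 0 had an unadjusted p under 0.05 in the order used above. The log2 fold change was above 0 for 8 of 9 (median 0.29), 6 of 9 (median 0.14) and 9 of 9 (median 0.18) in that order. HSP90AA1, the inducible HSP90, was at 866 ± 343 FPKM in Si-NEC, 670.2 ± 59.0 in Co-NEC and 696 ± 217 in No NEC pigs, a log2 difference of 0.29 (standard error 0.26) for Si-NEC against No NEC. FKBP4, the cochaperone that competes with FKBP5 for HSP90 and favours receptor activity, was at 79.4 ± 29.3, 62.8 ± 10.6 and 64.3 ± 14.3 FPKM. The lowest p in both comparisons with No NEC was that of HSPA8, the constitutive HSP70, with log2 differences of 0.46 in Si-NEC (standard error 0.20, exact permutation p = 0.0628) and 0.39 in Co-NEC pigs (standard error 0.17, exact permutation p = 0.0714). DNAJB1, an HSP40 partner, differed by 0.45 and 0.24 in the same comparisons, STIP1 by 0.39 in the former and PPID by 0.21 in the latter, and HSP90AB1 by 0.15 in Si-NEC against Co-NEC pigs. Without pig 223-15, an alternative added after the values were seen, the log2 fold change was above 0 for 8 of 9 chaperones against No NEC (median 0.11) and for 5 of 9 against Co-NEC pigs (median 0.03). No NEC pig 230-15, with a still higher summed FPKM, was kept, so only the Si-NEC side changed. HSP90AA1 was then at 736 ± 144 FPKM (n = 5) and its difference from No NEC 0.11, and FKBP4 was at 69.7 ± 19.0 FPKM with a difference of 0.10. HSPA8 was then 0.35 from No NEC and −0.05 from Co-NEC pigs. Pig 223-15 had the highest sum of these chaperones, 2820 FPKM, against at most 1855 FPKM in the No NEC pigs (in 230-15) and 1597 FPKM in the Co-NEC pigs.

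Of the enzymes that convert the hormone, HSD11B1, which regenerates cortisol, was listed at 0 in every pig. A listed 0 need not mean low expression in this table, where the astrocyte gene ALDH1L1 and the target CDKN1A were also listed at 0 in every pig. HSD11B2, which inactivates cortisol, had a mean of 0.137 FPKM, under the minimum of 0.5 for testing. Of 11 listed genes 4 were tested, with 0 past the adjusted threshold in any comparison and 0, 0 and 1 at an unadjusted p under 0.05. SRD5A1, the reductase that leads from progesterone and corticosteroids to neurosteroids, was at 61.2 ± 6.58 FPKM in Si-NEC, 51.0 ± 6.11 in Co-NEC and 52.9 ± 5.57 in No NEC pigs, and 4 of the 6 with Si-NEC exceeded both other groups. Its log2 difference was 0.26 against Co-NEC (standard error 0.11, limma adjusted p = 0.864) and 0.21 against No NEC pigs (standard error 0.11, exact permutation p = 0.0563). CRH, the releasing hormone at the head of the stress axis, was at 9.97 ± 4.22, 9.01 ± 1.99 and 10.5 ± 4.09 FPKM in the same order. CRHBP, which binds CRH, was at 17.2 ± 2.95, 17.4 ± 3.36 and 21.8 ± 6.85 FPKM, and its receptor CRHR1 at 2.44 ± 0.339, 3.28 ± 1.504 and 3.06 ± 0.740 FPKM.

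Of 10 coregulators that the bound receptor recruits 9 were tested, with 0 past the adjusted threshold. The log2 fold change was above 0 for 5 of 9 (median 0.01), 7 of 9 (median 0.02) and 2 of 9 (median −0.03) in the order used above, and the last became 5 of 9 without pig 223-15 (median 0.0014). The coactivator NCOA1 was at 15.1 ± 0.909 FPKM in Si-NEC, 15.2 ± 1.28 in Co-NEC and 15.1 ± 2.09 in No NEC pigs. NRIP1, a corepressor of nuclear receptors, was at 6.28 ± 0.867, 7.63 ± 0.883 and 6.47 ± 1.04 FPKM, and was the only one of the 9 with an unadjusted limma p under 0.05, at a log2 difference of −0.26 for Si-NEC against Co-NEC (limma adjusted p = 0.867). The chromatin remodeller SMARCA4 exceeded the Co-NEC range in 6 of 6 Si-NEC pigs, by 0.12 on the log2 scale (exact permutation p = 0.0108, limma adjusted p = 0.867), where 0.545% of all entries had groups without overlap. From No NEC pigs, MED1 differed by 0.23 (exact permutation p = 0.0397, limma adjusted p = 0.812) and NCOA3 by 0.43 in Co-NEC, and NCOA2 by 0.34, NCOA3 by 0.21 and NCOR1 by −0.09 in Si-NEC, all without passing.

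Among 30 further targets 15 were tested, and 0 passed in any comparison. The log2 fold change was above 0 for 10 of 15 (median 0.14), 8 of 15 (median 0.04) and 10 of 15 (median 0.13) in the same order. At an unadjusted p under 0.05 and set against No NEC pigs, 1 had a higher and 1 a lower mean in Si-NEC and 1 had a higher mean in Co-NEC, while between both NEC groups the count was 0 of 15. The lower one was MFSD2A, a lipid transporter of the brain endothelium, at 11.4 ± 3.08 FPKM in Si-NEC, 14.1 ± 2.95 in Co-NEC and 15.9 ± 2.01 in No NEC pigs, a log2 difference of −0.49 for Si-NEC against No NEC (standard error 0.18, exact permutation p = 0.0303, limma adjusted p = 1) with 4 of the 6 under the No NEC range. PDK4 was the higher one in that comparison, at 19.7 ± 12.4 FPKM in Si-NEC and 8.44 ± 2.48 in No NEC pigs, with 4 of the 6 over the No NEC range. Its log2 difference was 0.97 (standard error 0.41, exact permutation p = 0.0671), and 0.76 without pig 223-15. TIPARP, a mono-ADP-ribosyltransferase, was the higher one in Co-NEC, at 5.10 ± 0.536 against 3.53 ± 1.38 FPKM in No NEC pigs, with 4.63 ± 0.574 in Si-NEC pigs. NFKBIA, the inhibitor of NF-kB, was at 19.3 ± 7.997 FPKM in Si-NEC against 12.6 ± 1.81 in Co-NEC pigs, with 5 of the 6 over the Co-NEC range and 1 under it (log2 difference 0.51, standard error 0.24, exact permutation p = 0.0996). ARRDC2 differed by 0.34 between both NEC groups (0.21 without pig 223-15), and PLEKHF1 by −0.33 in Co-NEC from No NEC pigs.

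In the circadian clock, the other genes tested did not share the sign of PER1 between the NEC groups. Of 13 listed 7 were tested, with 0 past the adjusted threshold and 0, 0 and 1 (PER1) at an unadjusted p under 0.05. In Si-NEC against Co-NEC pigs PER1 was above 0 at 0.36 and the other 6 were below 0, with NR1D2 at −0.26 (standard error 0.13), CLOCK at −0.27 (0.15, and −0.16 without pig 223-15) and PER2 at −0.24 (0.15), and rescaling of the pigs changed none of these signs. PER2 was at 2.68 ± 0.612 FPKM in Si-NEC, 3.24 ± 0.512 in Co-NEC and 3.29 ± 0.407 in No NEC pigs. CRY2, a repressor of the clock, lay under the No NEC range in 5 of the 6 pigs with Si-NEC (log2 difference −0.25, standard error 0.12, exact permutation p = 0.0541), with 1 pig over that range. In Co-NEC against No NEC pigs, CLOCK differed by 0.56 (standard error 0.35), NR1D2 by 0.18 and CRY1 by 0.14. Across the 16 pigs, PER1 had r below 0 with all 6 other clock genes, from −0.392 with NR1D2 to −0.05 with ARNTL. The hour at which each pig was killed is not in the labels.

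**Figure D5:**
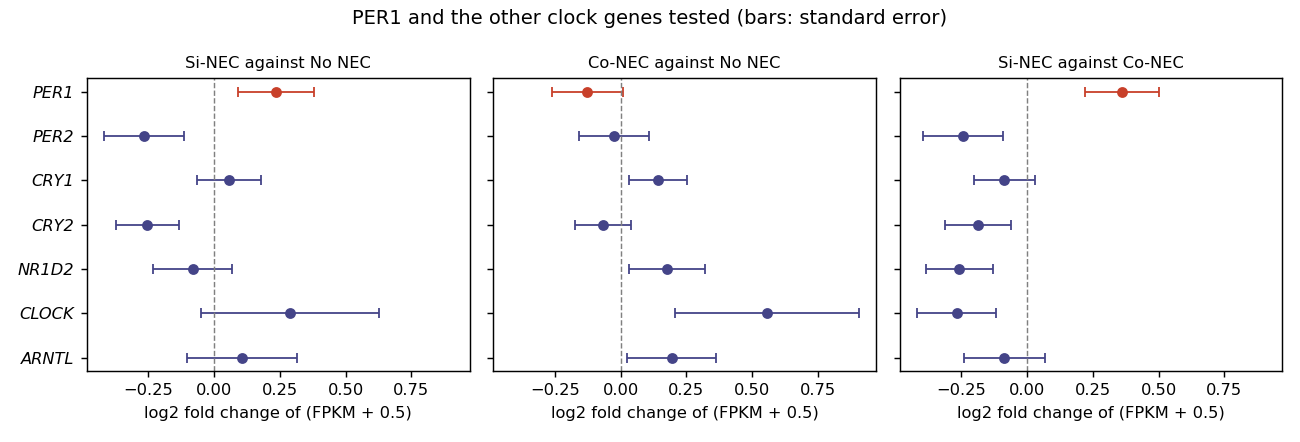
Log2 fold change of (FPKM + 0.5) of PER1 (red) and 6 other clock genes (blue) in the 3 comparisons, with bars for 1 standard error. In Si-NEC against Co-NEC, PER1 lies at 0.36 and the other genes lie below 0.

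DUSP1 is also an immediate early gene, one of those induced within minutes of neuronal activity or stress, and 7 of the 12 listed were tested. In Co-NEC against No NEC pigs, 0 of 7 had an unadjusted p under 0.05 and 0 of 7 were above 0 (median −0.13), with JUNB at −0.25 (standard error 0.14) and EGR1 at −0.21 (0.15), and in Si-NEC against Co-NEC pigs 6 of 7 were (median 0.32). In the latter, 2 of 7 had an unadjusted p under 0.05 and 0 passed the adjusted threshold. These were IER2, at 8.75 ± 2.89 FPKM in Si-NEC against 5.91 ± 0.786 in Co-NEC pigs (log2 difference 0.49, standard error 0.19), and JUNB, at 24.6 ± 4.70 against 19.5 ± 1.93 FPKM (0.31, standard error 0.13), each with 4 of the 6 over the Co-NEC range and limma adjusted p of 0.864 and 0.867. Against No NEC, 5 of 7 were above 0 in Si-NEC (median 0.16), IER2 at 0.38 (standard error 0.20), ATF3 at 0.39 (0.36) and EGR2 at −0.23 (0.18). Si-NEC pig 246-15 had the highest sum of the 7 genes, 121.0 FPKM, where No NEC pigs reached 81.5 and Co-NEC pigs 68.0.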

How the data were processed

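Hippocampal RNA-seq of 16 pigs was used. The authors trimmed the reads, aligned them to Sscrofa10.2 with TopHat 2.1.1 (per the submitters' processing notes) and estimated FPKM per gene with Cufflinks 2.2.1, and the deposited FPKM values were taken without further normalization. All value columns were used. Of 24594 entries, 1779 identical to another were dropped, and those with a mean of at least 0.5 FPKM were tested. Symbols came from RefSeq tables by Ensembl ID. Each pair of groups was fitted on log2(FPKM + 0.5) with limma 3.58.1 in R 4.3.3 (lmFit, eBayes with trend), with no covariate and Benjamini-Hochberg adjustment over all entries at the study's threshold of 0.2. Differences in mean log2 value of 1 gene were tested by exact permutation (two-sided), and correlations by 100000 permutations, in Python 3.11.15, numpy 2.4.6, pandas 2.3.3, scipy 1.17.1 and matplotlib 3.10.9. Both the fits and the correlations were tested on simulated data. Pathway genes named were HSP90AA1, FKBP4, HSD11B1, HSD11B2, CRHBP, NCOA1 and PER2, with up to 3 per list and comparison with the smallest limma p, and the 3 genes most like FKBP5. The genes and lists were chosen with earlier results of these data known, and some lists share genes. Alternatives were pseudocounts of 0.1 and 1, no filter or a minimum mean of 1 FPKM, rescaling, all groups in one fit, sex or number suffix as covariate, array weights, an adjusted p of 0.05, and leaving out pigs. Those for correlations, and the lists without pig 223-15, were added after seeing the data. Labels give no litter, so p-values measure the spread between these pigs. Depth is unknown, so no counting error could be given. The pseudocount makes log2 fold changes of genes near 0.5 FPKM smaller than the ratio of their means.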

Additional observations from a re-analysis of the deposited data

Results flagged for a closer look

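In 3 of the 15 sets of values checked (5 genes in 3 groups), 1 pig lay apart from the rest of its group by Dixon's test, where chance gives about 1 in 20. SGK1 was at 27.9 FPKM in No NEC pig 230-15, the pig with the highest summed FPKM, where the next of its group was at 20.1. DUSP1 was at 25.4 FPKM in No NEC pig 253-15, above 16.02 in the next. DUSP1 was at 38.5 FPKM in Si-NEC pig 246-15, above 19.0 in the next. Pig 246-15 also had the highest neutrophil marker sum, 25.9 FPKM, nearly all of it from 1 gene, S100A8, at 25.0 FPKM. What set these values apart was not tested.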

How the results depend on the processing

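The counts of glucocorticoid genes called stayed at 0 in the 3 comparisons under every alternative run, and the smallest adjusted p of PER1 in Si-NEC against Co-NEC pigs was 0.272. Genes called over the whole table moved from 1 to 2 (number suffix as covariate), 4 (array weights) and 1 to 3 (leaving out each pig, 3 without 540-14) in Si-NEC against No NEC. They moved from 1 to 4 (no filter) and 1 to 2 (leaving out each pig, 2 without 225-15 or 540-14) when Co-NEC was set against No NEC. In Si-NEC against Co-NEC they moved from 2 to 201 (array weights), to 1 (pseudocount 0.1, no filter, one fit, sex, suffix, an adjusted p of 0.05, or without 223-15 and 230-15) and to 1 to 12 on leaving out each pig (12 without 547-14, 5 without 255-15). Log2 fold changes that turned sign were small. SGK1 in Si-NEC against No NEC became −0.0051 when rescaled, −0.0058 with sex and −0.0145 with suffix, and −0.0409 to 0.105 on leaving out each pig. KLF9 and DUSP1 then ran from −0.0226 to 0.160 and −0.0492 to 0.324. In Co-NEC against No NEC, FKBP5 became −0.0023 (pseudocount 1) and −0.0041 (rescaled), SGK1 0.0921 (array weights) and 0.0813 (without 223-15 and 230-15), and leaving out each pig gave −0.237 to 0.258 for FKBP5, −0.0899 to 0.0813 for SGK1 and −0.23 to 0.0047 for DUSP1. SGK1 in Si-NEC against Co-NEC became −0.0317 (array weights), −0.0101 (without 223-15 and 230-15) and −0.0174 to 0.0909 on leaving out each pig. The cause was not tested. The correlation of FKBP5 and KLF9 lay between 0.744 and 0.851 under other pseudocounts, rescaling, removal of means and without 1 pig or without 223-15 and 230-15, with adjusted permutation p of at most 0.0111, and at 0.692 without 540-14 and 550-14. No paired analysis was possible because the labels carry no replicate numbers, and different pigs are not pairs.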
